A study of Bos taurus with 28 samples.

Results

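The genes described here carry the signal of growth hormone and prolactin into the liver cell: the receptors GHR and PRLR, the kinase JAK2, the transcription factors STAT5A and STAT5B, and the inhibitors SOCS2, SOCS3 and CISH. Members were chosen by name, and every probe set whose annotated symbol is one of these 8 genes was taken. Of the 8 genes, 6 had a probe set with that symbol alone, and JAK2 and STAT5A are not analysed here. These 6 genes had 17 probe sets among the 24016 on the array that are not controls, 11 of them for GHR, 2 for SOCS3 and 1 each for PRLR, STAT5B, SOCS2 and CISH. There were 2 further probe sets annotated to GHR together with a second gene, and these were not used.

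Growth hormone binds GHR and prolactin binds PRLR, both class I cytokine receptors that have no kinase of their own and rely on JAK2. The activated kinase phosphorylates STAT5A and STAT5B, which enter the nucleus and turn on target genes, among them IGF1 in the liver. CISH, SOCS2 and SOCS3 are themselves induced by cytokine signaling and then dampen it, so that their mRNA is often read as a trace of recent receptor activity. In cattle the liver is the main source of circulating IGF1, and hepatic GHR and IGF1 change with lactation and nutrition.

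Liver biopsies came from ovariectomized, non-lactating Holstein cows, so that the animals of all 4 groups lacked ovarian steroids of their own. Cows received no hormone (CO), an ear implant releasing estradiol (E2T), vaginal devices delivering progesterone (P4T), or both (E2P4T), each for 14 d. Implants and devices were replaced after 7 d. The labels of P4T arrays call the progesterone exposure intradermal, whereas the treatment protocol and the study's methods give the vaginal route. Messenger RNA of each biopsy was hybridized to 1 Affymetrix Bovine GeneChip, with 7 arrays in each group and 28 in all. The design was a Latin square in which cows passed through the treatments, but the labels give neither cow nor period, so that the p-values below measure only the spread between arrays. Values are log2 signals, on which a difference of 1 is a doubling. Signals of different probe sets are not compared, since each has its own response, and in whole liver fewer cells of a type and less RNA per cell cannot be told apart.

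A pair of arrays stood apart from the others and is treated separately throughout. On E2P4T array 5, the mean log2 signal of 19 hepatocyte genes (albumin, apolipoproteins and other secreted liver proteins) was 10.11, against 15.11 to 15.75 on the 26 arrays other than this one and P4T array 4. The same array had a mean of 10.87 over 9 genes of the kidney nephron, against 5.08 to 7.81, with 8 of the 9 genes at their highest there, so that its label as liver goes against its defining markers. On P4T array 4, the hepatocyte mean was 15.42, but its hybridisation spikes were at 17.31, against 12.95 to 16.26. Those of E2P4T array 5 were higher still, at 18.27. The study also set aside an outlying array of P4T and one of E2P4T, and whether they were these is not given in the sources used here. After that it analysed as many P4T and E2P4T arrays as the series holds, but more CO and E2T arrays. Results are given on all 28 arrays and on the 26 without this pair.

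The first question is at what level each member was detected. SOCS2 had a mean log2 signal of 11.74 over the 28 arrays, CISH one of 9.97, PRLR 9.41, GHR 9.11 and STAT5B 8.67, each at its probe set of highest mean, and SOCS3 one of 5.38. Probe sets were tested when the highest of their 28 signals reached 350, a log2 signal of 8.45, since the table has no detection calls, and 18775 of the 24016 did so. SOCS2 and CISH reached this signal on all 28 arrays, PRLR on 27, GHR on 22 and STAT5B on 17. SOCS3 reached it on 1 array, P4T 4. Of the 17 member probe sets 12 were tested, but only 5 reached 350 in all 4 groups, and 7 were tested through a single array each.

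Signal of the 6 genes on the individual arrays is shown in the plot by group. The range within a group was wide for some members and narrow for others. The within-group SD on the 26 arrays was 1.07 for SOCS2, which exceeded that of 98.2% of the probe sets in the upper 50% by mean signal, and 0.92 for GHR, which exceeded 96.4%. PRLR had an SD of 0.34, larger than 23% of them, and CISH and STAT5B had SDs of 0.47 and 0.52, close to the median of 0.44. SOCS3, with a low signal, had an SD of 1.89.

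**Figure D1:**
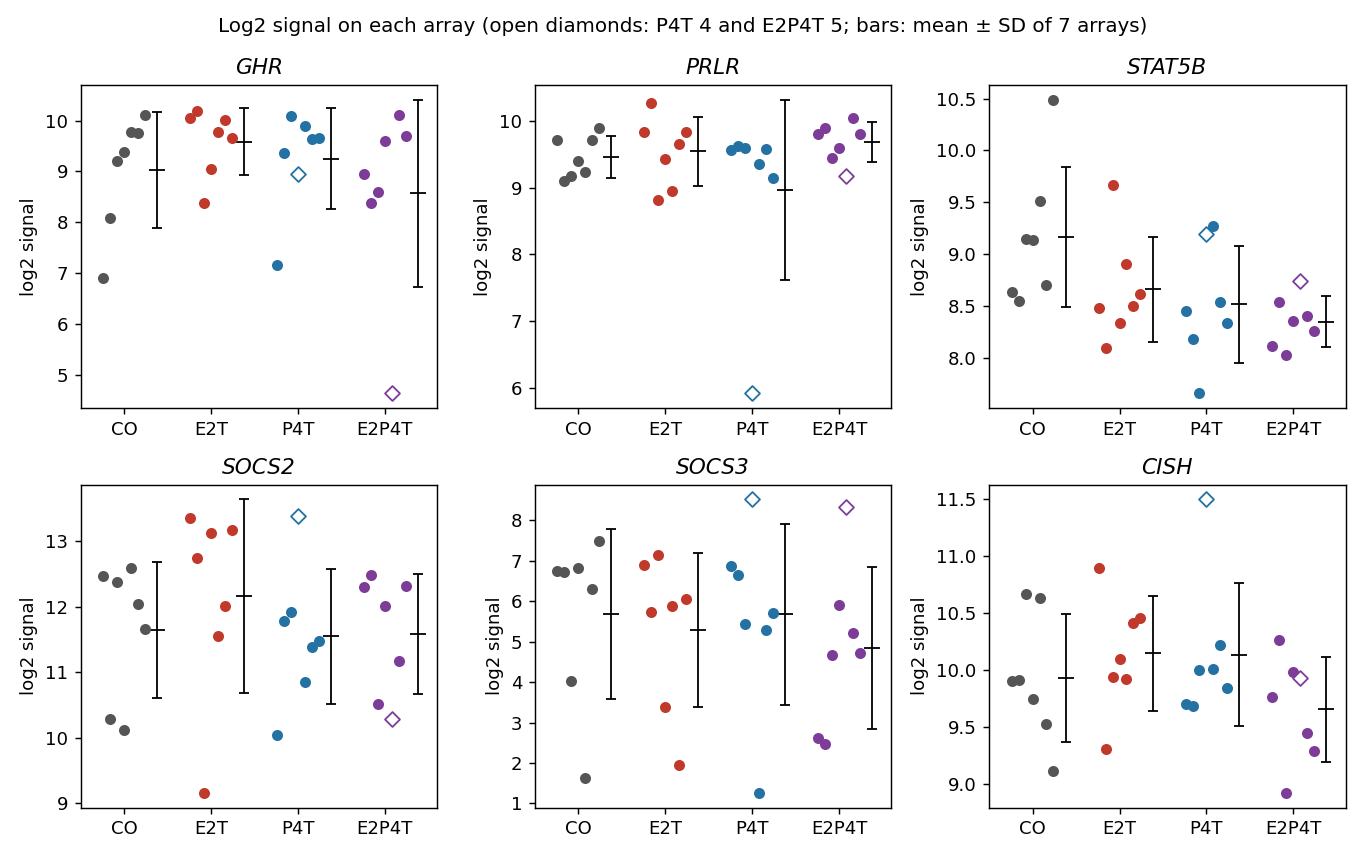
Log2 signal (vertical axis) of the probe set of highest mean for 6 member genes, by group (horizontal axis); each point is 1 array, open diamonds are P4T array 4 and E2P4T array 5, and bars are mean ± SD of 7 arrays. GHR is at 4.64 on E2P4T array 5 and PRLR at 5.92 on P4T array 4, while STAT5B is highest in CO at 10.49.

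Among the receptors, GHR had a log2 signal of 6.9, 8.09, 9.21, 9.38, 9.78, 9.75 and 10.11 on CO arrays 1 to 7. On E2T arrays it was 10.06, 10.18, 8.38, 9.04, 9.78, 10.01 and 9.66. CO held the lowest value of both groups, and the ranges overlapped. On P4T arrays GHR was at 7.16, 9.36, 10.09, 8.95, 9.89, 9.63 and 9.66. On E2P4T arrays it was at 8.96, 8.39, 8.6, 9.6, 4.64, 10.12 and 9.69. The value of 4.64 belongs to E2P4T array 5, the array with the low hepatocyte mean, and is the lowest of the 28.

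In order of the mean, GHR was at 9.59 ± 0.65 in E2T, 9.25 ± 0.99 in P4T, 9.03 ± 1.14 in CO and 8.57 ± 1.84 in E2P4T (log2 signal, SD, n = 7), and no neighbours in this order differed beyond their spread. With limma across all probe sets tested, the log2 difference of GHR from CO was 0.56 for E2T (95% interval -0.65 to 1.77, adjusted p = 0.9), 0.22 for P4T (-0.99 to 1.43, adjusted p = 1) and -0.46 for E2P4T (-1.67 to 0.75, adjusted p = 0.96). Without both arrays the last difference turned to 0.2 (-0.74 to 1.13). On 28 arrays the intervals reached beyond 1 log2 unit upward in E2T and P4T and downward in E2P4T, so that a difference in GHR mRNA of that size could have gone undetected.

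PRLR, which in the liver binds prolactin and in ruminants also placental lactogen, was at 9.72, 9.1, 9.18, 9.4, 9.24, 9.71 and 9.9 on CO arrays. On E2T arrays it was at 9.84, 10.27, 8.82, 9.43, 8.95, 9.66 and 9.84, and on E2P4T arrays at 9.8, 9.9, 9.44, 9.59, 9.18, 10.05 and 9.81. These 3 groups lay within a narrow band and overlapped throughout. On P4T arrays it was at 9.56, 9.62, 9.59, 5.92, 9.35, 9.58 and 9.14, and the value of 5.92 is from array 4, whose spikes were high. On E2P4T array 5, where the hepatocyte mean was 10.11, PRLR was at 9.18, the lowest of its group, and the next lowest was 9.44.

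Without both arrays, the log2 difference of PRLR from CO was 0.08 for E2T (95% interval -0.33 to 0.49), 0.01 for P4T (-0.41 to 0.44) and 0.3 for E2P4T (-0.12 to 0.72), with adjusted p of 0.9, 0.99 and 0.62 in limma. On all 28 arrays the difference was -0.49 for P4T (-1.26 to 0.28, adjusted p = 1). In order of the mean on 28 arrays, PRLR was at 9.68 ± 0.3 in E2P4T, 9.54 ± 0.52 in E2T, 9.46 ± 0.31 in CO and 8.97 ± 1.35 in P4T (log2 signal, SD, n = 7), and no neighbours in this order differed beyond their spread. Of the 6 genes, PRLR had the narrowest intervals on the 26 arrays.

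STAT5B, the transcription factor through which growth hormone acts on IGF1, had the lowest p-values of the 6 genes in comparisons with CO, each gene at its probe set of highest mean. Its log2 signal on CO arrays was 8.64, 8.55, 9.15, 9.14, 9.51, 8.7 and 10.49. On E2P4T arrays it was 8.12, 8.54, 8.03, 8.36, 8.74, 8.4 and 8.26. All 7 E2P4T arrays lay below the CO mean of 9.17, and the groups overlapped through E2P4T array 5, at 8.74. STAT5B was at 8.48, 8.1, 9.67, 8.34, 8.91, 8.5 and 8.62 on E2T arrays, with 6 of 7 below the CO mean. On P4T arrays it was at 8.45, 8.18, 7.66, 9.19, 9.27, 8.54 and 8.34, with 5 of 7 below it.

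In order of the mean, STAT5B had a log2 signal of 9.17 ± 0.68 (SD, n = 7) for CO, followed by E2T with 8.66 ± 0.51, P4T with 8.52 ± 0.56 and E2P4T with 8.35 ± 0.24. The 3 treated groups lay within each other's spread. The log2 difference of STAT5B from CO was -0.82 for E2P4T (SE 0.29, unadjusted p = 0.0087 in limma), -0.65 for P4T (SE 0.29, unadjusted p = 0.034) and -0.51 for E2T (SE 0.29, unadjusted p = 0.093). None of the 3 passed the threshold of 0.05 after Benjamini-Hochberg adjustment over 18775 probe sets, with adjusted p of 0.93, 1 and 0.87. At an unadjusted p under 0.05, 514 probe sets of the array (2.74%) fell below CO in E2P4T and 345 (1.84%) in P4T, and STAT5B was the 1 of 6 member genes called lower by that rule in each of these comparisons. In E2T 748 probe sets (3.98%) and 0 of 6 member genes were called lower. No member gene was called higher, against 1.45% of the probe sets in E2T, 0.943% in P4T and 2.17% in E2P4T, and no probe set on the array passed after adjustment in any of the 3 comparisons. The comparisons share the CO arrays, including array 7 at 10.49, and their values are not independent.

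Without that CO array, the difference of STAT5B was -0.6 for E2P4T (unadjusted p = 0.037), -0.43 for P4T (unadjusted p = 0.13) and -0.29 for E2T (unadjusted p = 0.31) in limma. For P4T the unadjusted p also rose above 0.05 without CO array 5 (-0.59, unadjusted p = 0.063) or without P4T array 2 (-0.59, unadjusted p = 0.063), 3 (-0.51, unadjusted p = 0.096) or 7 (-0.62, unadjusted p = 0.054). Without E2T array 3, the E2T difference was -0.68, with an unadjusted p of 0.026. On the 26 arrays the difference was -0.88 for E2P4T (unadjusted p = 0.0048, adjusted p = 0.49) and -0.76 for P4T (unadjusted p = 0.013, adjusted p = 0.59) in limma. There E2P4T and CO no longer overlapped, as for 0.117% of the probe sets. They only just parted, with the highest E2P4T value at 8.54 and the lowest CO value at 8.55. On these arrays the unadjusted rule called 6.51% of the probe sets lower in E2P4T and 5.81% in P4T.

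Over the 26 arrays, on which the hepatocyte mean ranged only from 15.11 to 15.75, Pearson's r between STAT5B and the mean of the 19 hepatocyte genes was 0.6, and 0.5 after group means were removed, as a description over arrays that share treatments. On E2P4T array 5, left out of these values, the hepatocyte mean was 10.11 and STAT5B was at 8.74, the highest of its group. The hepatocyte mean was 15.57 ± 0.13 in CO (range 15.35 to 15.73), 15.41 ± 0.13 in E2T (15.19 to 15.58), 15.37 ± 0.12 in P4T (15.19 to 15.5) and 15.43 ± 0.24 in E2P4T (15.11 to 15.75), as log2 signal with SD. CO array 7, with the highest STAT5B, had the highest hepatocyte mean of CO (15.73) and the highest kidney mean of the 26 arrays (7.81). Mean signals of the kidney genes ranged from 5.59 to 7.81 in CO and from 5.08 to 6.66 in E2P4T. The part of either list in the STAT5B values was not tested. STAT5A and STAT5B are closely related paralogs, and whether STAT5A mRNA also binds this probe set was not tested.

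**Figure D2:**
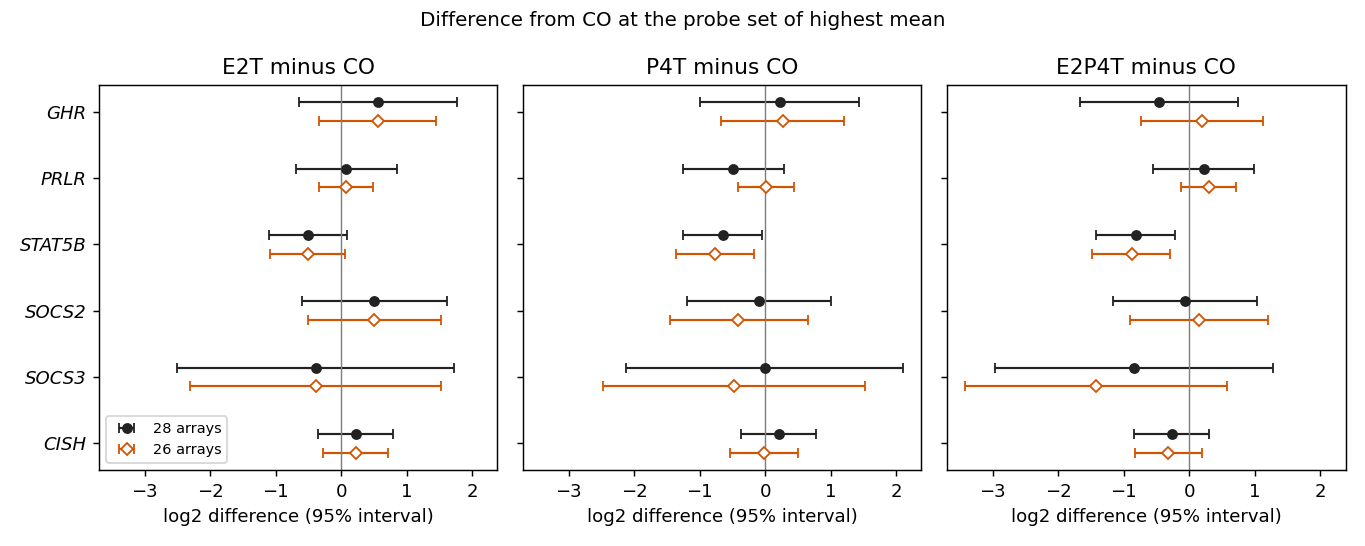
Log2 difference from CO (horizontal axis, points, with 95% intervals from limma) of 6 member genes in E2T, P4T and E2P4T, on all 28 arrays (filled circles) and on the 26 without P4T array 4 and E2P4T array 5 (open diamonds). STAT5B lies below 0 in all 3 panels, at -0.51, -0.65 and -0.82 on 28 arrays. Its interval in E2T includes 0 (-1.1 to 0.09 on 28 arrays, -1.08 to 0.06 on 26), as do all intervals of GHR, PRLR, SOCS2, SOCS3 and CISH.

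None of the 3 inhibitors passed the test after adjustment in any comparison with CO. SOCS2, a target of growth hormone that marks its receptor for degradation, was at 12.47, 10.29, 12.38, 10.12, 12.6, 12.05 and 11.66 on CO arrays. On E2T arrays it was at 13.36, 12.75, 9.16, 13.13, 11.56, 12.01 and 13.17. There were 4 E2T arrays above every CO array, and E2T array 3 was below all of them, so that the highest and lowest values of both groups were in E2T. SOCS2 was at 10.04, 11.78, 11.93, 13.39, 10.86, 11.39 and 11.48 on P4T arrays, and at 12.31, 12.48, 10.52, 12.01, 10.29, 11.18 and 12.32 on E2P4T arrays.

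Levels of SOCS2 also varied widely within CO, where 2 arrays lay near 10 and 4 at or above 12. The mean was 12.16 ± 1.48 in E2T, 11.65 ± 1.04 in CO, 11.59 ± 0.92 in E2P4T and 11.55 ± 1.03 in P4T (log2 signal, SD, n = 7), with no neighbours apart beyond their spread. The log2 difference from CO was 0.51 for E2T (SE 0.54, 95% interval -0.59 to 1.61, adjusted p = 0.9 in limma), -0.1 for P4T (-1.2 to 1) and -0.07 for E2P4T (-1.17 to 1.04). Without P4T array 4 and E2P4T array 5 the difference was -0.41 for P4T (-1.46 to 0.65) and turned to 0.15 for E2P4T (-0.91 to 1.21). Leaving out E2T array 3, the E2T difference was 1.01, with an unadjusted p of 0.039. That array had hybridisation spikes of 15.42, the second highest of the 26 arrays, and the share of this in the SOCS2 value was not tested. Without the 4 arrays of highest spike signal (P4T 4, E2P4T 5, CO 3 and E2T 3), a setting chosen after seeing the data, the E2T difference was 1.13, with an unadjusted p of 0.012.

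CISH, which binds activated cytokine receptors and was named for its rapid induction, was at 9.9, 9.91, 10.67, 9.75, 10.63, 9.53 and 9.11 on CO arrays. On E2T arrays it was at 10.9, 9.31, 9.94, 10.1, 9.92, 10.41 and 10.46, and on E2P4T arrays at 9.76, 10.26, 8.92, 9.98, 9.93, 9.45 and 9.29. All groups overlapped, with the lowest of the 28 values in E2P4T. On P4T arrays it was at 9.7, 9.68, 10, 11.5, 10.01, 10.22 and 9.84. The value of 11.5, on P4T array 4, was the highest of the 28, and the other 6 P4T arrays spanned only 9.68 to 10.22.

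By mean the order of the groups was E2T (10.15 ± 0.51), P4T (10.14 ± 0.63), CO (9.93 ± 0.56) and E2P4T (9.66 ± 0.46), as log2 signal with SD over 7 arrays, again with no neighbours apart beyond their spread. Differences of CISH from CO were 0.22 for E2T (95% interval -0.35 to 0.79), 0.21 for P4T (-0.37 to 0.78) and -0.27 for E2P4T (-0.85 to 0.3), with adjusted p of 0.91, 1 and 0.95 in limma. Without both arrays the P4T difference was -0.02 (-0.54 to 0.5). On the 26 arrays CISH was lower in E2P4T than in E2T by the unadjusted rule, with a log2 difference of -0.54 (unadjusted p = 0.041, adjusted p = 1), as were 0.799% of the probe sets, whereas on 28 arrays the difference was -0.49 (unadjusted p = 0.089).

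SOCS3, an inhibitor best known from the response to interleukin-6, gave no level that could be followed. Its log2 signal ranged from 1.63 to 7.5 among CO arrays, from 1.96 to 7.15 among E2T arrays, from 1.26 to 8.52 among P4T arrays and from 2.46 to 8.33 among E2P4T arrays. The highest values of the last 2 groups were from P4T array 4 and E2P4T array 5, and without these arrays no SOCS3 signal reached 350. The second SOCS3 probe set ranged from 1.54 to 5.89 over the 28 arrays and was not tested. Across the 26 arrays the r between both SOCS3 probe sets was 0.06, as a description. Differences from CO for the first were between -0.84 and -0.01, each with an SE of 1.04.

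The main effects and the interaction of both hormones were tested as well, since the 4 groups form a factorial design. STAT5B had a main effect of P4 of -0.48 (SE 0.21, unadjusted p = 0.027, adjusted p = 1 in limma), by which 0.692% of the probe sets were called lower, and one of E2 of -0.34 (SE 0.21, unadjusted p = 0.11). On the 26 arrays the main effect of P4 was -0.57 (unadjusted p = 0.0094, adjusted p = 0.97), where 3.14% of the probe sets were called lower. No interaction of E2 and P4 passed at an unadjusted p under 0.05 in any of the 6 genes, against 2.99% of the probe sets. The lowest p was that of CISH, with an interaction of -0.7 (SE 0.4, unadjusted p = 0.088), which was -0.52 on the 26 arrays (unadjusted p = 0.16).

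The other 10 GHR probe sets did not follow the first. Their mean log2 signals were between 4.07 and 6.42, and 6 of their 280 signals reached 350. These 6 values came from 6 probe sets, 4 of them on E2P4T array 5, 1 on P4T array 4 and 1 on CO array 7. On E2P4T array 5, the GHR probe set of highest mean was therefore at its lowest while 5 other GHR probe sets were at their highest. Over the 26 arrays, r with the first probe set ranged from -0.22 to 0.25 among the 10, and among themselves the median r was 0.08 over 45 pairs, all given as descriptions. The 11 GHR probe sets derive from 7 source sequences, 1 of which gave 4 probe sets, so that they are not independent measurements.

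Of the 6 that were tested, only the one with a mean log2 signal of 4.93 had an unadjusted p under 0.05 in a comparison with CO on 28 arrays, with a log2 difference of -1.86 for E2T (SE 0.86, unadjusted p = 0.039, adjusted p = 0.87 in limma). It was tested through CO array 7 alone, at 8.63, so that a value high in CO was the condition for its test. Of the 4 below the filter, 2 from the same source sequence had an unadjusted p under 0.05 in a fit of all 24016 probe sets, in which 4.81% were called lower in E2T and 3.11% in E2P4T. One differed by -1.98 in E2T and by -2.64 in E2P4T (unadjusted p = 0.031 and 0.0052, adjusted p = 0.81 and 0.93), and by -3.24 in E2P4T on the 26 arrays (unadjusted p = 0.00051, adjusted p = 0.45), where 7.02% were called lower. Its log2 signal ranged from 3.38 to 7.64 on CO arrays and from 0.77 to 6.94 on E2P4T arrays, so that the groups overlapped. The other differed by -1.64 and -1.77 (unadjusted p = 0.047 and 0.033, adjusted p = 0.81 and 0.93). The remaining probe set of that source sequence, also below the filter, did not go the same way. It differed by -0.22 in E2T and by 1.33 in E2P4T (unadjusted p = 0.8 and 0.12 in limma).

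**Figure D3:**
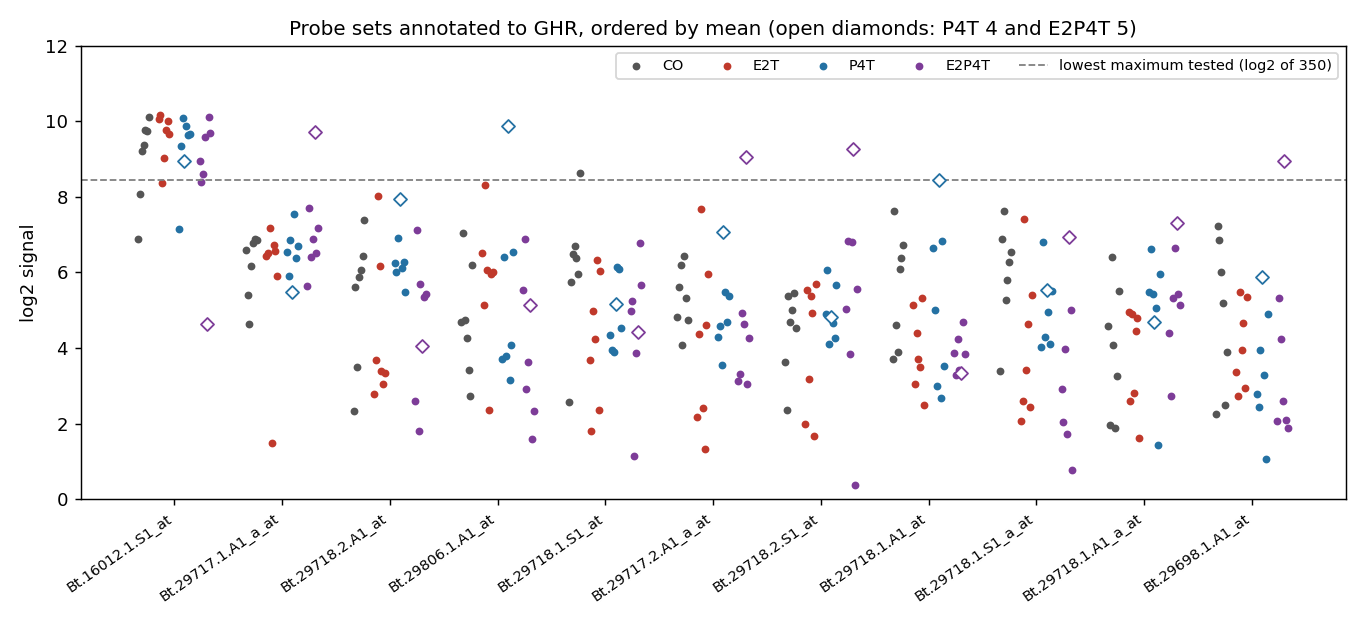
Log2 signal (vertical axis) of each of 11 probe sets annotated to GHR, ordered by mean (horizontal axis); points are arrays coloured by group, open diamonds are P4T array 4 and E2P4T array 5, and the dashed line is the log2 of the signal of 350 that a probe set had to reach on 1 array. The first probe set has a mean of 9.11, whereas the means of the other 10 lie between 4.07 and 6.42, with the values above the line mostly diamonds.

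Ligands and other genes of the pathway give the setting of the members. PRL and GH1, the ligands, are pituitary hormones, yet each had a probe set with a high signal, at a mean log2 of 11.38 for PRL and 10.2 for GH1. PRL had 6 probe sets with means from 3.32 to 11.38, of which 2 were tested, and GH1 had 6 with means from 3.57 to 10.2, of which 4 were tested. Probe sets of one ligand thus differed widely, and whether those with a high signal measure the hormone mRNA was not tested. GHRH, listed with the ligands, was tested too, and none of these 3 genes passed at an unadjusted p under 0.05 in E2T, P4T or E2P4T.

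Apart from members and ligands, 67 genes were listed as other class I cytokine receptors, other JAK and STAT genes, adaptors and kinases, other inhibitors, growth hormone responsive liver genes and hepatic factors of the GHR promoter, and 37 were tested. By the unadjusted rule on 28 arrays 1 of the 37 (2.7%) was lower in E2T than in CO, 1 (2.7%) in P4T and 2 (5.41%) in E2P4T, beside 3.98%, 1.84% and 2.74% of all probe sets tested, and none was higher. On the 26 arrays 2 (5.41%), 2 (5.41%) and 1 (2.7%) were lower, beside 7.2%, 5.81% and 6.51% of all probe sets, and IGFBP3 was higher in E2T, as were 3.03% of the probe sets. Their median log2 differences on 28 arrays were 0.02, 0.04 and -0.03, beside -0.1, -0.03 and -0.02 over all probe sets tested. None passed after adjustment.

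Among other JAK and STAT genes, JAK1, the kinase with the highest mean signal of that list, differed from CO by 0.15 in E2T and 0.16 in P4T (log2). STAT4, which transmits interleukin-12 in lymphocytes, was lower in E2T by 0.73 and in P4T by 0.77 on the log2 scale (unadjusted p = 0.037 and 0.027 in limma). It differed by -0.43 in E2P4T on 28 arrays (unadjusted p = 0.21) and by -0.72 on the 26 (unadjusted p = 0.017). CD3E, a T cell marker of the leukocyte list, was named after its values were seen. It was lower by the same rule on 28 arrays, at -0.51 in E2T and -0.46 in P4T (unadjusted p = 0.027 and 0.043 in limma). The list as a whole did not go the same way. Of its 6 tested genes, 3 were below 0 in E2T and 2 in P4T, with median differences of 0.05 and 0.23. On the 26 arrays the mean over all 7 leukocyte and Kupffer cell genes was 9.79 in CO, 9.76 in E2T and 9.98 in P4T. The part of T cells in the STAT4 value was not tested.

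IL4R, the interleukin-4 receptor, and LYN, a kinase of the SRC family, were lower in E2P4T on 28 arrays, by log2 differences of -0.6 and -0.78 (unadjusted p = 0.043 and 0.044). Neither passed on the 26 arrays. IL13RA1 among receptors, SHC1 among adaptors and SIRPA among inhibitors were named for the highest mean signal of their lists (13.46, 13.24 and 11.83), which is no comparison of mRNA levels, and none of the 3 passed in any comparison with CO.

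The 7 growth hormone responsive genes had median log2 differences from CO of 0.33, 0.02 and -0.19 for E2T, P4T and E2P4T on 28 arrays, with 2, 3 and 5 of 7 below 0. On the 26 arrays the medians were 0.33, 0.21 and 0.06, with 2, 2 and 3 of 7 below 0, beside -0.1, -0.09 and -0.09 over all probe sets tested. IGF1, a target of STAT5B in the liver, differed from CO by -0.1 in E2T, -0.12 in P4T and -0.19 in E2P4T on 28 arrays. These values include P4T array 4 and E2P4T array 5, so that they are not the differences on the 26 arrays. On CO arrays the log2 signal of IGF1 was 9.66, 9.63, 10.2, 9.81, 10.03, 9.16 and 9.31. It was 10.19, 9.2, 8.98, 9.79, 9.82, 9.86 and 9.3 in E2T. Without both arrays it was 9.36, 9.56, 9.26, 9.54, 9.49 and 9.17 in P4T, and 9.09, 9.85, 9.1, 9.74, 8.57 and 9.34 in E2P4T. CO arrays 1 to 5 thus lay above all of these P4T arrays, and CO arrays 6 and 7 did not. IGFBP3, a carrier of IGF1 in blood, differed by 0.46 in E2T (unadjusted p = 0.19), and by the same 0.46 with an unadjusted p of 0.018 on the 26 arrays (adjusted p = 0.42). HNF4A, a factor of the hepatocyte that also binds the GHR promoter, differed by -0.01, 0.11 and -0.21 on 28 arrays. On the 26 arrays its differences were -0.01, 0.04 and -0.01.

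**Figure D4:**
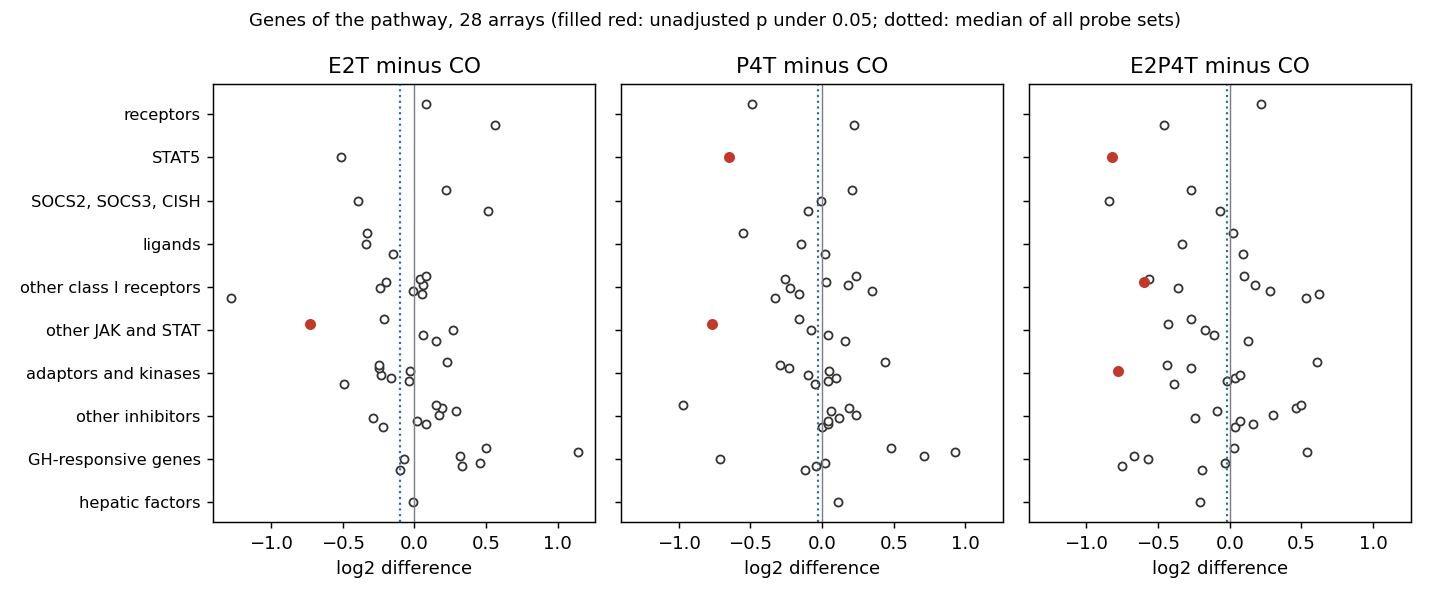
Log2 difference from CO (horizontal axis) of each tested gene of the pathway, at its probe set of highest mean, by list (vertical axis) in E2T, P4T and E2P4T on 28 arrays; filled red points have an unadjusted p under 0.05 and the dotted line is the median of all probe sets tested. STAT5B is filled in P4T and E2P4T at -0.65 and -0.82, STAT4 in E2T and P4T at -0.73 and -0.77, and IL4R and LYN in E2P4T at -0.6 and -0.78.

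Members were also compared with each other and with all other genes across the 26 arrays, as a description with no test, over arrays that share treatments and array quality. Among the 15 pairs of member genes the median r was 0.05, from -0.31 to 0.52. The highest was PRLR with SOCS2, at 0.52 on the 26 arrays and 0.54 after group means were removed, but -0.03 on all 28, where P4T array 4 had the lowest PRLR and the highest SOCS2. Taken group by group, r was 0.25 (CO), 0.76 (E2T), 0.06 (P4T) and 0.39 (E2P4T), on 6 or 7 arrays each.

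For CISH the most alike of 6169 candidate probe sets, those with 1 gene symbol and a mean signal above the median of the probe sets tested, was one of IGF1, with an r of 0.69 on the 26 arrays, 0.69 after group means were removed and 0.66 on the 28. Across the 26 arrays CISH spanned 8.92 to 10.9. By group, r was 0.9 for CO, 0.62 for E2T, 0.64 for E2P4T and 0.1 for P4T, where CISH spanned only 9.68 to 10.22. IGF1 had 4 probe sets, and the other 3 had r values of 0, 0.13 and 0.35 with CISH, so that the likeness holds for the probe set of highest mean (9.59) and not for the gene at large.

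**Figure D5:**
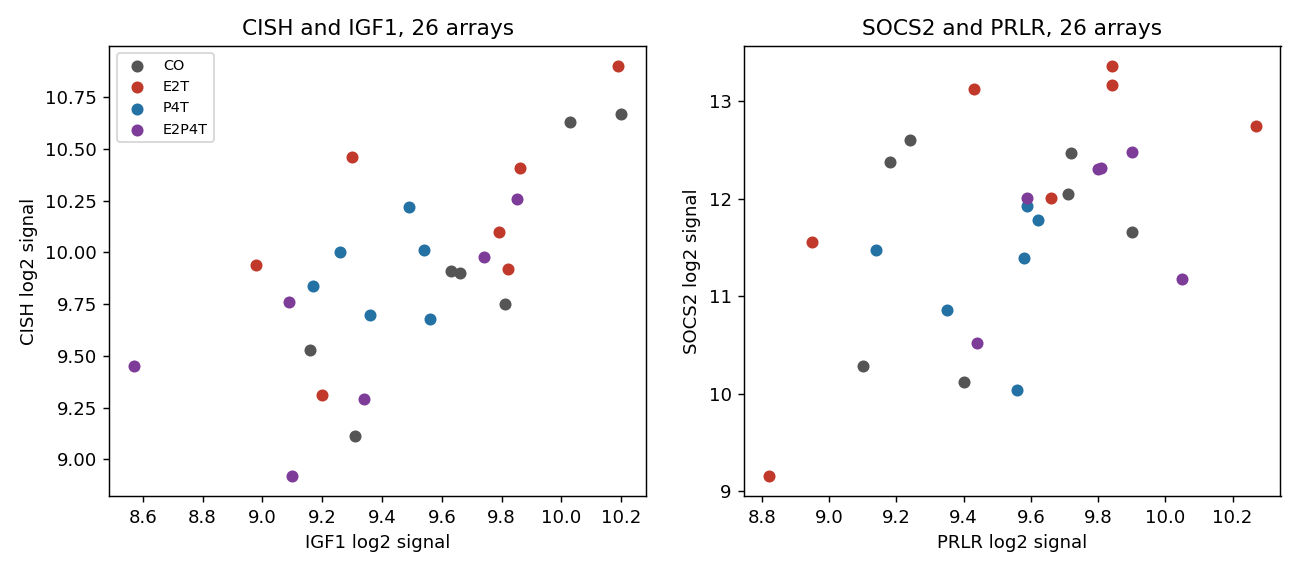
Log2 signal of CISH (vertical axis) against IGF1 (horizontal axis), left, and of SOCS2 against PRLR, right, on the 26 arrays without P4T array 4 and E2P4T array 5; each point is 1 array, coloured by group. CISH and IGF1 have an r of 0.69 and SOCS2 and PRLR one of 0.52, given as descriptions.

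The most alike probe set for SOCS2 was that of ACSL1, which activates long-chain fatty acids, with an r of 0.77 on the 26 arrays and 0.72 on the 28, followed by DNAJC13 (0.72) and MED31 (0.71). For GHR these were FAM149A (0.8), HMGB1 (0.8) and MAPKAP1 (0.79), and for STAT5B NUP214 (0.81), PIDD1 (0.8) and UBAC1 (0.8). For PRLR they were CNOT7 (0.75), PTGR2 (0.74) and PNRC2 (0.74), after IGF1 for CISH came PTGES3L (0.65) and SIAE (0.62), and for SOCS3, with its low signal, GON7, AMY2B and DPP4 reached only 0.54, 0.51 and 0.51. On all 28 arrays r was 0.49 for FAM149A with GHR and 0.29 for CNOT7 with PRLR, so that these lists depend on which arrays are used.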

How the data were processed

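Gene expression was measured in 28 liver biopsies, 7 for each group. The authors labelled cRNA with biotin for the Affymetrix Bovine GeneChip, and the deposited value is a signal intensity per probe set on a linear scale, made with MAS5 per the labels. The trimmed mean of every array was checked and was 1000. The table holds 24128 probe sets, 112 of them controls, with no detection calls. Symbols came from the platform annotation; 13292 probe sets had 1 symbol, 86 several and 10638 none.

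Signals were set on a log2 scale with no further scaling. Probe sets with a highest signal of at least 350 were tested (18775). R 4.3.3 and limma 3.58.1 (lmFit, eBayes with a trend) gave the contrasts with CO, main effects, the interaction and 95% intervals; p-values were adjusted by the Benjamini-Hochberg method with a threshold of 0.05. The scripts were tested on simulated data. Cow and period were terms of the study's mixed model, which could not be fitted here, since the labels give neither. The number of arrays limits the precision.

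Where a gene had several probe sets, that with the highest mean stood for it. Named genes are the members, per list the gene of highest mean and up to 4 with an F test p under 0.05 (none), and per member the 3 most alike by r over 26 arrays; IGF1, STAT4, IL4R, LYN, IGFBP3 and CD3E were also named after their values were seen. Members and lists were chosen with earlier results of these data known. Alternatives were other scalings, filters and pseudocounts, array weights, no moderation, a replicate block, an exact permutation test, arrays left out, and, chosen after seeing the data, 4 arrays left out. No sequence or genome position is given.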

Additional observations from a re-analysis of the deposited data

Results flagged for a closer look

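In groups of 7 arrays, an array was marked when its gap to the nearest other array took up more of the range of the group than Dixon's 95% critical value. Chance alone marks about 1 in 20 groups, and 5 of the 24 groups of the 6 member genes were marked. GHR was at 7.16 on P4T array 1, with the nearest array at 8.95, and at 4.64 on E2P4T array 5, with the nearest at 8.39. PRLR was at 5.92 on P4T array 4, with the nearest at 9.14. SOCS2 was at 9.16 on E2T array 3, with the nearest at 11.56. CISH was at 11.5 on P4T array 4, with the nearest at 10.22. Of the 5 values, 3 are from P4T array 4 and E2P4T array 5, the pair that stood apart in spikes or liver markers.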

How the results depend on the processing

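No probe set passed after adjustment in any comparison with CO, except 1 in E2T without the 4 arrays of highest spike signal, a setting chosen after seeing the data. There, and with array weights, and without E2T array 3, 2 member genes (STAT5B and SOCS2) passed the unadjusted threshold in E2T, beside 13.4%, 16.9% and 9.7% of all probe sets, against 5.44% on 28 arrays. The count for P4T fell to 0 using only the groups compared, where the share of all probe sets was not computed. Of 231 member differences under alternatives 210 kept their direction and their side of that threshold. Many of these could not turn in direction. The other filters, no moderation, the replicate block, only the groups compared and the permutation test leave each difference as it is, so that only p could move. The mean over probe sets changes only GHR and SOCS3. For STAT5B in P4T the unadjusted p was 0.064 with only the groups compared and 0.068 in an exact permutation test over 3432 splits. Array weights gave STAT5B -0.58 (unadjusted p = 0.03) and SOCS2 1.09 (unadjusted p = 0.025) for E2T, and 4 arrays left out gave -0.68 (unadjusted p = 0.023) and 1.13 (unadjusted p = 0.012). Turned in direction, none past the threshold, were SOCS3 in E2T (0.01) and P4T (0.22) with quantile normalization, SOCS3 in P4T with median centring (0.04), with log2 of the value plus 50 (0.02) and as the mean over probe sets (0.15), GHR as the mean over probe sets in E2T (-0.71) and P4T (-0.05), and GHR and SOCS2 in E2P4T with array weights (0.15 and 0.27) and with 4 arrays left out (0.23 and 0.27). The cause was not tested.

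Leaving out single arrays, or P4T 4 and E2P4T 5 together, member counts ranged from 0 to 2 in E2T and from 0 to 1 in P4T. For P4T the share of all probe sets called without single arrays was not computed. Differences that turned ranged for GHR from -0.14 to 0.57 (P4T) and from -0.82 to 0.2 (E2P4T), for PRLR from -0.04 to 0.2 (E2T) and from -0.6 to 0.01 (P4T), and for SOCS2 from -0.41 to 0.15 (P4T) and from -0.32 to 0.15 (E2P4T). They ranged for SOCS3 from -1.06 to 0.17 (E2T) and from -0.68 to 0.73 (P4T), and for CISH from -0.02 to 0.33 (P4T). STAT5B stayed below 0 in each.

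Of 42 pairs of arrays with the same number 13 had a correlation of deviations over 0.1 (-0.21 to 0.32), and all 6 pairs of number 6 did (0.12 to 0.32). Not every pair did, so the numbers were not taken as pairs. That 11 of 28 arrays correlated best with their own number is a hint from the data, not the design. A replicate block cannot move the differences, since every array number is present in each group, so the STAT5B differences stayed as they were by construction. Only p could change. For STAT5B the unadjusted p in limma was 0.09 (E2T), 0.032 (P4T) and 0.0085 (E2P4T), against 0.093, 0.034 and 0.0087 without the block. By the unadjusted rule, the counts of member genes were 0, 1 and 1 with the block and without it. The share of all probe sets called with the block was not computed.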
